A study of Mus musculus with 27 samples.

Results

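The keratin genes analysed here are the protein-coding genes whose GENCODE vM21 symbol is Krt followed by a number and at most 1 letter. They came to 53 of the 22524 genes counted, 27 on mouse chromosome 11 and 26 on chromosome 15 (GRCm38). Levels were read in 27 RNA-sequencing libraries. Epithelial organoids were grown from the distal jejunum of 9 young adult male wild-type C57BL/6J mice, cohoused littermates within a facility, and were sampled after several passages. The donors were 3 mice each from SR and SE, which are specific pathogen-free (SPF), and 3 from GF, which is germ free. Mouse embryonic fibroblasts (MEFs) gave 3 libraries, all labelled untreated, and the intestinal cell line m-ICc12, immortalised and of mouse origin, gave 3 replicates. The m-ICc12 libraries were paired by replicate number and are called cultures M1 to M3. The labels do not say that these were grown separately. Each organoid and m-ICc12 culture gave 1 library labelled untreated and 1 labelled as treated with tumour necrosis factor (TNF, 5 ng/mL for 8 hr).

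Keratins are the intermediate filament proteins of epithelial cells. An acidic type I keratin pairs with a basic type II keratin, so a keratin filament holds both types. The type I genes sit together on chromosome 11 and the type II genes on chromosome 15, and the type I gene Krt18 lies next to Krt8 at the end of the type II cluster. In the intestinal lining, a simple epithelium, Krt8 is the main type II partner of Krt18, Krt19 and Krt20, and Krt20 is known from differentiated villus cells. Krt5 and Krt15 belong to basal cells of stratified epithelia, Krt6a and Krt16 are induced on wounding, Krt10 belongs to differentiating epidermis, Krt12 to the cornea and Krt13 to the oral and oesophageal lining. By such roles 6 of the genes were grouped as simple epithelial, 7 as basal or stress, 13 as stratified, 23 as hair and hair follicle, and 4 as other.

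Krt7, Krt8, Krt18 and Krt20 were the keratins that passed the test as higher than in MEFs in both epithelial models, and their promoters are shown for that reason. The sequences are the 250 bases before the RefSeq start (GRCm38.p6), 5′ to 3′ on the strand of the gene. By GENCODE vM21, used for the genes, Krt7 begins at 101411043, so its window lies inside the gene. The Krt8 and Krt18 windows overlap their genes, which begin at 102004482 and 102028180. Capitals mark matches on either strand to TATAAA (the TATA box), GGGCGG (the GC box core), TGANTCA (an AP-1 site) or CACCC (a core bound by many Krüppel-like factors).
Krt8, chr15:102004343-102004592, minus strand: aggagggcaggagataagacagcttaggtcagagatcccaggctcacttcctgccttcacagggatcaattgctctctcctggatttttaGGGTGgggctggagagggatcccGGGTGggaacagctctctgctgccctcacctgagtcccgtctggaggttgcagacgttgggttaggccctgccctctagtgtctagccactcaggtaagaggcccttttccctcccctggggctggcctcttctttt
Krt18, chr15:102027966-102028215, plus strand: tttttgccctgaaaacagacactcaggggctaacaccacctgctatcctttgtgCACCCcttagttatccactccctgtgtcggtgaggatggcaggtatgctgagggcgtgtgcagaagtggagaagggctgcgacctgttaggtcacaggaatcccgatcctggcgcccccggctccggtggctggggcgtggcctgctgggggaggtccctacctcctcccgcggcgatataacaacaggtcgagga
Krt7, chr15:101412153-101412402, plus strand: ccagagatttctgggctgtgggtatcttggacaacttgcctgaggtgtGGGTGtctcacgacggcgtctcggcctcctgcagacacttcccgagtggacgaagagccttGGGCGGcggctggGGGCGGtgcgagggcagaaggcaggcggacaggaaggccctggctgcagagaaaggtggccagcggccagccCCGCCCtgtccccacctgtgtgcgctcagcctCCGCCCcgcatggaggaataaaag
Krt20, chr11:99438154-99438403, minus strand: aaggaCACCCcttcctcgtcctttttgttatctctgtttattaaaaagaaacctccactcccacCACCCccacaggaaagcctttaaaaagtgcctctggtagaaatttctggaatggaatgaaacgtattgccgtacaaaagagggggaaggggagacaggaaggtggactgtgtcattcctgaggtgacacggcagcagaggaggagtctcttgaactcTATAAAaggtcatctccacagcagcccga
The Krt7 window held 4 matches to GGGCGG and 1 to CACCC, and the Krt20 window held 1 match to TATAAA and 2 to CACCC. The windows of the neighbours Krt8 and Krt18 held 2 and 1 matches to CACCC and none to the other 3 motifs. Over all 32851 RefSeq promoters of this length, 12.4% held TATAAA, 32.7% GGGCGG, 6.75% TGANTCA and 52% CACCC. Of the 37 keratin promoters in the table, which cover 36 of the 53 genes, 17 held TATAAA, 2 GGGCGG, 2 TGANTCA and 29 CACCC. Krt20, Krt10 and Krt12 were among those with TATAAA, and both promoters with TGANTCA were those of Krt13. The matches are a description of these letters and say nothing of binding.

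Total counts ranged from 6071103 to 43843615 per library, so that 3 counts, used as the floor of detection, stood for 0.0684 to 0.494 counts per 1000000 (CPM). Levels are given as CPM scaled by edgeR's trimmed mean of M-values (TMM). The shallowest library was that of m-ICc12 culture M1 labelled TNF, in which Lars2, a gene whose reads can mix with mitochondrial ribosomal RNA, took 13.5% of the counts, and in the M3 library labelled TNF it took 4.44%. Against the label, Nfkbia, Tnfaip3, Nfkb2 and Relb, which TNF is known to induce, were higher in the library labelled untreated in 9 of 9 organoid and 3 of 3 m-ICc12 cultures. In organoids Nfkbia averaged 195.7 CPM under the label untreated and 31.1 CPM under the label TNF. The name under which each library's counts were deposited also gave the opposite treatment. The labels do not say that the m-ICc12 and MEF libraries came from separately grown cultures, so that p-values for these cells may measure technical spread. Groups are given by label only, and which library of a culture received TNF was not settled here.

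The labelled cell types were checked by their markers. All 18 intestinal epithelial markers had over 3 counts in an organoid library labelled untreated, and they summed to 5043 to 6877 CPM there. In m-ICc12 cells labelled untreated the same markers summed to 22.3 to 57.5 CPM, where MEFs held 49.4 to 71.2 CPM. Most of the m-ICc12 sum was Vil1, the villin of the brush border (mean 33.1 CPM, against 1.27 CPM in MEFs). Most of the MEF sum was Dclk1 (mean 44.9 CPM, against 0.0171 CPM in m-ICc12 cells). Cdh1, the epithelial cadherin, averaged 1011 ± 63.2 CPM (SD, n = 9) in organoids, and ranged from 0.937 to 1.82 CPM in m-ICc12 cells and from 1.01 to 1.80 CPM in MEFs. Epcam averaged 974 CPM in organoids and 4.37 CPM in m-ICc12 cells, and Alpi, Dclk1 and Trpm5 stayed at or under 3 counts in every m-ICc12 library. Apart from Vil1, the intestinal epithelial markers were thus near absent from the cells labelled m-ICc12. The keratin level of these cells was nonetheless far above that of MEFs. Fibroblast markers summed to 3338 to 4404 CPM in MEFs, 9.75 to 20.8 CPM in organoids and 1.58 to 2.12 CPM in m-ICc12 cells labelled untreated. Mesothelial markers summed to 351 to 517 CPM in m-ICc12 cells, nearly all of it Msln, to 105 to 124 CPM in MEFs and to 20.9 to 79.3 CPM in organoids, and 2 of the 5 (Upk1b and Lrrn4) stayed at or under 3 counts in m-ICc12 cells. Immune and endothelial markers summed to at most 1.51 CPM in any library. The part of these markers in the keratin values was not tested. In bulk libraries fewer keratin-positive cells and less keratin RNA per cell cannot be told apart.

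Keratin RNA was abundant in both epithelial models, more so in organoids, and nearly absent from MEFs. The 53 genes summed to 3638 to 4865 CPM in the 9 organoid libraries labelled untreated, with a mean of 4311 ± 420 CPM (SD). The 3 m-ICc12 libraries labelled untreated held 2411, 2979 and 3000 CPM, and the 3 MEF libraries 43.6, 44.1 and 47.1 CPM. The ranges of the 3 cell types did not overlap. Of the 53 genes, 16 had 0 counts in every library. Over 3 counts in every library of the cell type were found for 7 keratins in organoids (Krt7, Krt8, Krt10, Krt18, Krt19, Krt20 and Krt23), 11 in m-ICc12 cells (Krt5, Krt7, Krt8, Krt10, Krt12, Krt18, Krt19, Krt20, Krt79, Krt80 and Krt90) and 9 in MEFs (Krt7, Krt8, Krt10, Krt13, Krt16, Krt18, Krt19, Krt20 and Krt80). All 6 simple epithelial keratins were among the 7 of the organoids. These counts rest on 18 organoid, 6 m-ICc12 and 3 MEF libraries, and the rule is harder to meet with more libraries. Over 3 counts in any library, a rule easier to meet with more libraries, were found for 27, 18 and 12 keratins. The numbers of keratins detected can therefore not be compared between the cell types. None of the 23 hair and hair follicle keratins reached a mean of 1 CPM in any cell type, and the highest such mean was 0.601 CPM, in organoids. A mean of at least 1 CPM over all libraries of a cell type was reached by 15 keratins, which are described in turn. Fits used the libraries labelled untreated and edgeR's quasi-likelihood F-test. As label and deposited name disagree, the organoid and m-ICc12 libraries in these fits may be those that received TNF, also where they are set against MEFs. Differences are on the log2 scale with their SE, and intervals are 95% normal intervals from the SE. The p-values are adjusted by Benjamini-Hochberg over all genes tested.

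**Figure D1:**
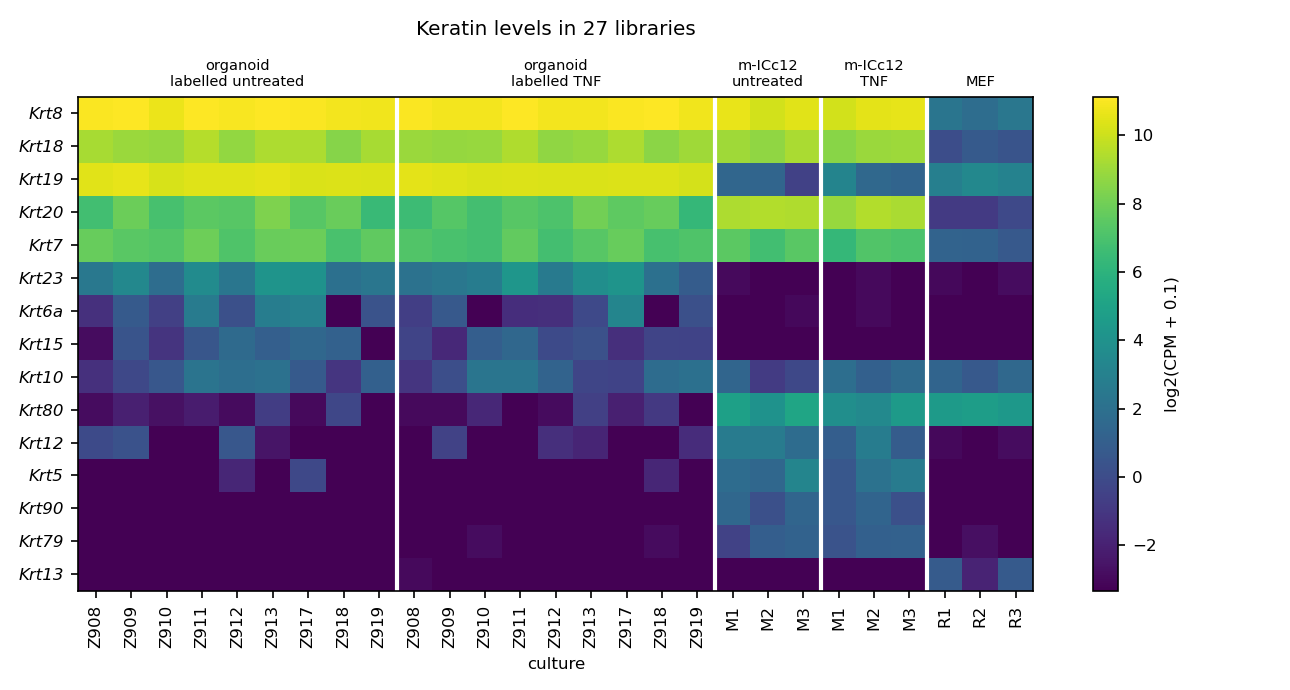
Heat map of the 15 keratins (rows) with a mean of at least 1 CPM in a cell type, in 27 libraries (columns, by cell type, label and culture). Colour is log2 of CPM plus 0.1. Krt8, Krt18, Krt20 and Krt7 are bright in organoids and m-ICc12 cells, Krt19 is bright in organoids, and Krt80 is seen in m-ICc12 cells and MEFs.

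Krt8 (chr15:101996698-102004482, minus strand), the type II keratin of simple epithelia, was the keratin with the most counts in both epithelial models. In organoids labelled untreated it ranged from 1681 to 2233 CPM with a median of 2081. The m-ICc12 libraries held 1142, 1430 and 1590 CPM and the MEF libraries 3.45, 4.89 and 5.26 CPM. Every organoid library lay above every m-ICc12 library, and MEFs lay lower by orders of magnitude. The organoid level was higher than the m-ICc12 level by 0.56 ± 0.12 on the log2 scale (SE, edgeR quasi-likelihood test, adjusted p = 0.00066). Of the 100-base words of Krt8 transcripts, 16.9% also occur in the pseudogene Krt8-ps, so a part of its reads may have been split or lost in counting.

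Krt18 (chr15:102028180-102032027, plus strand), the type I gene beside Krt8 and its usual partner, ranged from 364 to 740 CPM in organoids with a median of 598. It stood at 416, 537 and 635 CPM in m-ICc12 cells and at 0.949, 1.27 and 1.64 CPM in MEFs. The m-ICc12 values lay inside the organoid range. The difference between the epithelial models was 0.10 ± 0.18 (log2, SE), with a 95% interval of −0.26 to 0.46 and an adjusted p of 0.66.

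Krt19 (chr11:100140810-100148665, minus strand), a type I keratin that also pairs with Krt8 and is known from the crypt, separated the epithelial models. Organoids held 1215 to 1526 CPM with a median of 1347, whereas m-ICc12 cells held 0.601, 2.52 and 2.67 CPM and MEFs 7.43, 8.36 and 10.6 CPM. The 3 ranges were apart, with m-ICc12 cells the lowest. The level from summed counts was 717-fold higher in organoids than in m-ICc12 cells, and the fitted difference was 9.49 ± 0.39 (log2, SE, adjusted p = 3.5e-12). Krt19 was lower in m-ICc12 cells than in MEFs, with a difference of −2.24 ± 0.55 (adjusted p = 0.0034). With the m-ICc12 libraries labelled TNF instead, the difference was −0.95 and was not called (adjusted p = 0.17).

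Krt20 (chr11:99428403-99438150, minus strand), the type I keratin of differentiated villus cells, was the simple epithelial keratin that was higher in the cell line. It ranged from 89.6 to 324.5 CPM in organoids with a median of 168, and stood at 647, 689 and 715 CPM in m-ICc12 cells. In MEFs it stood at 0.451, 0.453 and 0.806 CPM. Every m-ICc12 library was above the highest organoid library. The difference of organoids from m-ICc12 cells was −1.91 ± 0.26 (log2, SE, adjusted p = 9.1e-06), and the level from summed counts was 3.75-fold higher in m-ICc12 cells.

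Krt7 (chr15:101411043-101430313, plus strand), a type II keratin best known from ductal and glandular epithelia, did not pass the test between the epithelial models. It ranged from 127.6 to 246.8 CPM in organoids with a median of 192, and stood at 106, 169 and 176 CPM in m-ICc12 cells and 1.53, 2.19 and 2.28 CPM in MEFs. Of the m-ICc12 libraries, 1 lay below the organoid range and the others lay inside it. The difference was 0.36 ± 0.21 (log2, SE), with an interval of −0.04 to 0.77 and an adjusted p of 0.14. Exons of Krt7 overlap the antisense gene Gm671. Of the other keratins described here, Krt5, Krt6a, Krt8, Krt10, Krt12, Krt80 and Krt90 also have exons that overlap a gene on the opposite strand. The use of strand in counting is not given in the sources used here.

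Krt23 (chr11:99477974-99493137, minus strand), an inducible type I keratin, was found in organoids and was nearly absent from the other cells. It ranged from 3.47 to 17.95 CPM in organoids with a median of 5.40, and the 3 m-ICc12 libraries together held 1 count and the 3 MEF libraries 2 counts. The ratio of organoids to m-ICc12 cells was 1112, with an exact 95% counting interval of 199.4 to 43940, and that of organoids to MEFs was 494 (137 to 4083). These intervals cover counting error only.

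**Figure D2:**
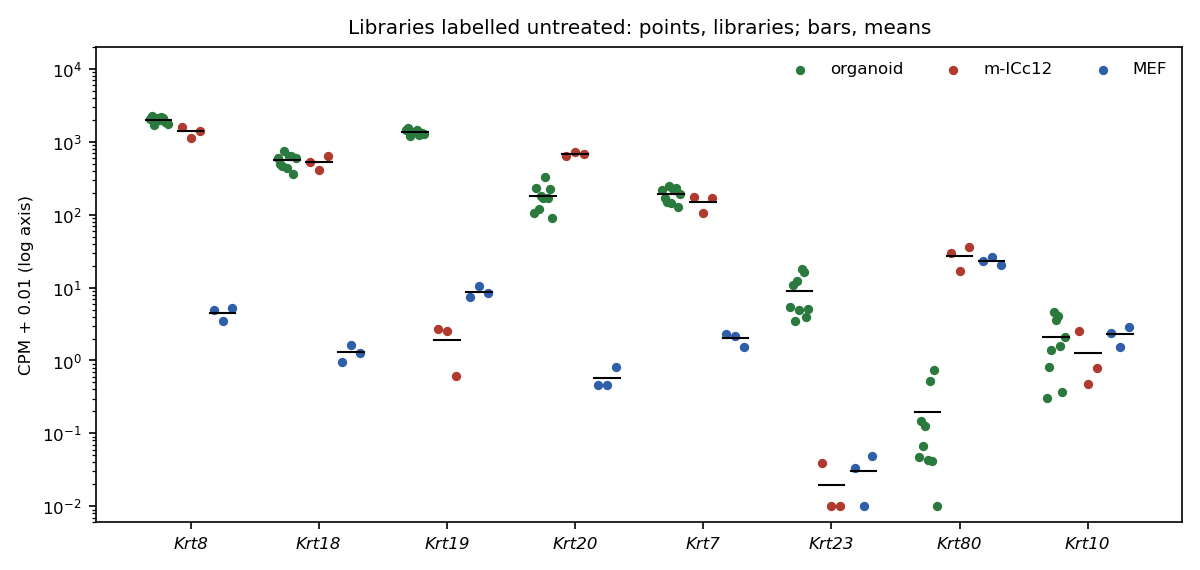
CPM plus 0.01 on a log axis for 8 keratins in the libraries labelled untreated of organoids (green, n = 9), m-ICc12 cells (red, n = 3) and MEFs (blue, n = 3). Points are libraries and bars are means, and a keratin with 0 counts is drawn at 0.01. Krt18 and Krt7 each overlap between the epithelial models, and Krt8 is higher in every organoid library than in any m-ICc12 library. Krt19 and Krt23 are high in organoids, Krt20 is higher in m-ICc12 cells, Krt80 is low in organoids and Krt10 overlaps in the 3 cell types.

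The basal and stress keratins Krt6a and Krt15 were low and uneven in organoids. Krt6a ranged from 0 to 8.08 CPM with a median of 1.20, and the cultures Z911, Z913 and Z917 held the 3 highest values. In the libraries labelled TNF these cultures held 0.272, 0.824 and 9.49 CPM. The 3 m-ICc12 libraries together held 1 count of Krt6a, a ratio of 366 (65.5 to 14490), and MEFs held none, a level at least 108-fold lower against 3 counts over the group. Krt6a shares 34% of its 100-base words with Krt6b, Krt5 and 2 unnamed gene models and is uncertain for that reason. Krt15 ranged from 0 to 3.07 CPM with a median of 1.37, and it had 0 counts in every m-ICc12 and MEF library, so that organoids were at least 63.5-fold and 56.4-fold higher. Krt5, a basal cell keratin, showed the opposite pattern. It stood at 2.74, 3.40 and 9.28 CPM in m-ICc12 cells and at 0 in 7 of the 9 organoid libraries and in all 3 MEF libraries. By summed counts it was 39.9-fold higher in m-ICc12 cells than in organoids, and the fitted difference of organoids was −5.42 ± 1.37 (log2, SE, adjusted p = 0.0026). Of the 31 organoid counts of Krt5, 25 came from culture Z917, and the difference was −7.36 without it and −4.68 without the m-ICc12 library M3.

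Of the 13 stratified keratins 4 reached a mean of 1 CPM in m-ICc12 cells, 3 in MEFs and 1 in organoids. Krt80 (chr15:101347444-101370162, minus strand), a type II keratin of stratified and glandular epithelia, stood at 16.7, 29.9 and 35.7 CPM in m-ICc12 cells and 20.4, 23.45 and 25.9 CPM in MEFs, but at 0 to 0.730 CPM in organoids. Organoids were lower than both, with differences of −7.14 ± 0.82 from m-ICc12 cells (log2, SE, adjusted p = 1.2e-06) and −6.91 ± 0.82 from MEFs (adjusted p = 1.7e-06). Without culture Z918 the Krt80 differences were −7.82 and −7.58. Between m-ICc12 cells and MEFs the Krt80 ranges overlapped, with a difference of 0.19 ± 0.26 (interval −0.32 to 0.71, adjusted p = 0.55). Krt12, the corneal keratin, stood at 3.39, 6.31 and 6.42 CPM in m-ICc12 cells, at 0 in 5 of 9 organoid libraries and at up to 1.41 CPM in the others. It was lower in organoids (−3.74 ± 1.35, adjusted p = 0.025), a call lost without the m-ICc12 library M1 (−3.59) or M2 (−3.60), each with an adjusted p of 0.067. Krt79, a keratin of sebaceous and follicle epithelium, stood at 0.615, 1.86 and 2.26 CPM in m-ICc12 cells, and Krt90, grouped as other, at 1.05, 2.48 and 2.70 CPM. Neither had a count in the 9 organoid libraries, which puts the m-ICc12 level at least 131.6-fold and 159.9-fold higher.

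Krt13, a keratin of the oral and oesophageal lining, was found in MEFs, at 0.176, 1.57 and 1.66 CPM. It had 0 counts in the 9 organoid and the 3 m-ICc12 libraries labelled untreated, at least 87.35-fold and 44.26-fold lower. Krt16, a wound-induced keratin, stood at 0.427, 0.756 and 1.30 CPM in MEFs, at 0 in m-ICc12 cells and at 0 in 7 of 9 organoid libraries. It shares 24.3% of its words with Krt14 and the gene model Gm11597. Krt10, the epidermal differentiation keratin, overlapped in all 3 cell types, at 0.298 to 4.66 CPM in organoids, 0.460, 0.769 and 2.49 CPM in m-ICc12 cells and 1.54, 2.37 and 2.88 CPM in MEFs. It passed the test in none of the 3 comparisons, with an interval of −1.08 to 2.66 (log2) between organoids and m-ICc12 cells.

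The comparison of organoids with m-ICc12 cells sets a cell line beside cultures of primary epithelium. Of the 53 keratins 16 passed the filter on low counts, and 12 had an adjusted p under 0.05, 5 higher in organoids (Krt19, Krt23, Krt15, Krt6a and Krt8) and 7 lower (Krt20, Krt12, Krt5, Krt76, Krt80, Krt79 and Krt90). Of all 12962 genes tested, 60.9% were called, 31.6% higher and 29.3% lower in organoids, so that a large share of called genes was no feature of keratins. Krt76, a keratin of the oral lining, rested on 38 counts in m-ICc12 cells and 2 in organoids, and its call was lost with DESeq2 (adjusted p = 0.20) and without the m-ICc12 library M1 (adjusted p = 0.075). A keratin found in only 1 of the groups passes the filter through that group, so the genes tested are not all members. The median difference of the 16 tested keratins was 0.00 and that of all genes 0.03 on the log2 scale.

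Against MEFs, 12 keratins were tested in organoids and 10 were called, 8 higher (Krt8, Krt18, Krt23, Krt20, Krt19, Krt7, Krt6a and Krt15) and 2 lower (Krt80 and Krt13), where 67.2% of 13144 genes were called, 34.6% higher and 32.6% lower. The summed counts of Krt8 were 455-fold higher in organoids, of Krt18 434-fold, of Krt20 340-fold, of Krt19 155-fold and of Krt7 92-fold. Krt16 missed the threshold at −3.25 ± 1.40 (log2, SE, adjusted p = 0.0504). In m-ICc12 cells against MEFs, 15 were tested and 13 called, 10 higher and 3 lower (Krt19, Krt13 and Krt16), where 59.3% of 12830 genes were called, 28.1% higher and 31.2% lower. The median difference was 7.83 over the tested keratins in organoids against MEFs and 6.19 in m-ICc12 cells against MEFs, and 0.03 and −0.05 over all genes. Keratins with counts in only 1 group passed the filter through that group. Such were Krt15 in organoids and Krt5 in m-ICc12 cells, each with 0 counts in MEFs. The medians are thus partly set by the filter and are no test of keratins as a set. The value of 6.19 is that of Krt79, which had 2 counts in MEFs and moved to 8.92 without MEF replicate 2. In m-ICc12 cells Krt20 was 1277-fold higher, Krt18 410-fold, Krt8 307-fold and Krt7 71.3-fold, and Krt5, with 0 counts in MEFs, at least 185.8-fold. The other 5 higher keratins were Krt12, Krt90, Krt79, Krt76 and Krt4, of which Krt76 (0, 0.312 and 0.733 CPM) and Krt4, another keratin of the oral and oesophageal lining (0.234, 0.553 and 0.854 CPM), lost their calls when single libraries were left out (adjusted p up to 0.19 and 0.10). The 3 cell type comparisons share their samples.

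**Figure D3:**
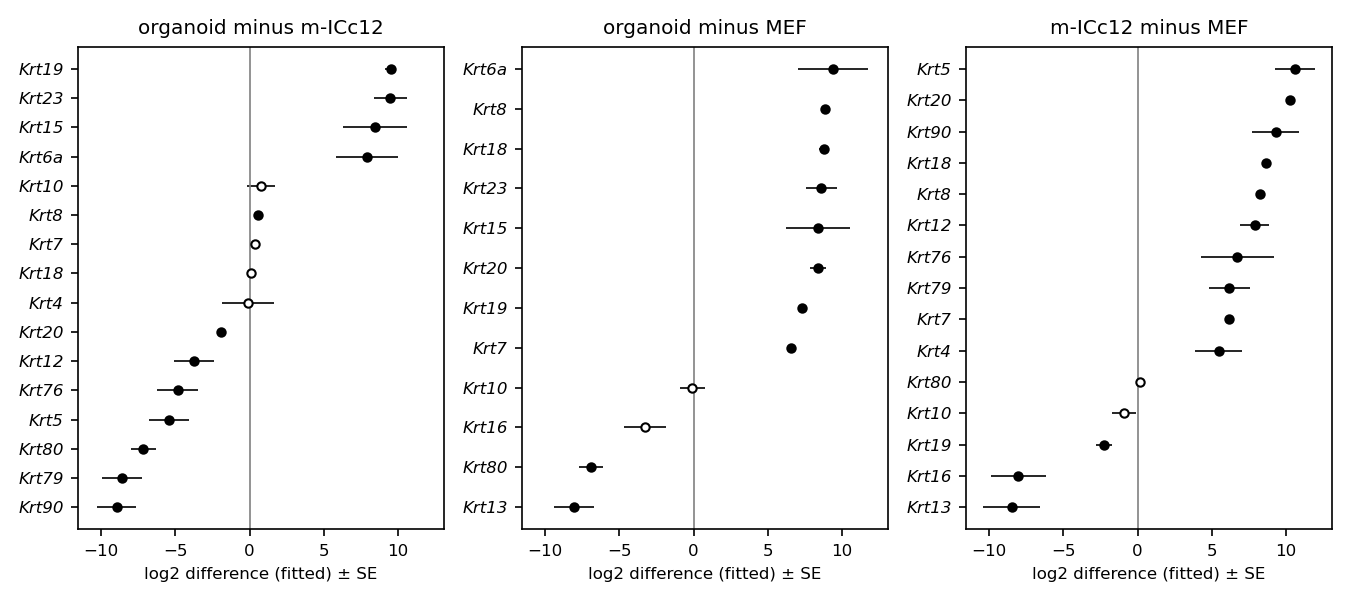
Fitted log2 differences (points) with SE (lines) of the keratins tested in the 3 comparisons of cell types. Filled points have an adjusted p under 0.05 and open points do not. Wide lines belong to keratins with 0 or few counts in a group, whose fitted size is no bound.

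Levels of different keratins can be compared only per length, and for this CPM was divided by the kilobases of the protein-coding exons. On this scale Krt8 made up 42.3 ± 1.30% of keratin RNA in organoids labelled untreated (SD, n = 9), Krt19 35.7 ± 2.29%, Krt18 15.9 ± 2.72%, Krt20 3.79 ± 1.36% and Krt7 1.90 ± 0.337%. In m-ICc12 cells Krt8 made up 47.6 ± 3.25% (n = 3), Krt18 24.7 ± 2.77%, Krt20 24.2 ± 4.13%, Krt7 2.45 ± 0.373% and Krt19 0.0852 ± 0.0538%. In organoids the order Krt8, Krt19, Krt18, Krt20 held with no overlap of the ranges of neighbours, whereas in m-ICc12 cells Krt18 (22.6 to 27.8%) and Krt20 (21.2 to 28.9%) overlapped. In MEFs Krt19 (28.8 to 38.1%) and Krt80 (26.0 to 32.7%) overlapped at the top and Krt8 came next (9.99 to 15.3%). The share of Krt7 rests on the length taken, 4094 bases of joined exons against 1927 for Krt20. In CPM without length, Krt7 averaged 189.9 and Krt20 179.2 in organoids labelled untreated.

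The type I and type II sums, which a filament draws on together, stayed close to each other while the total changed. The ratio of type I to type II, in CPM per kilobase, was 1.26 ± 0.0613 in organoids labelled untreated (SD, n = 9, 1.17 to 1.345). It was 0.827, 1.02 and 1.08 in m-ICc12 cells and 0.974, 1.15 and 1.30 in MEFs. The organoid range lay above the m-ICc12 range and overlapped that of MEFs. In the libraries labelled TNF the ratio was 1.07 to 1.27 in organoids and 0.832 to 0.891 in m-ICc12 cells. The type I sum itself was 1351 ± 132 CPM per kilobase in organoids, 728 ± 69.1 in m-ICc12 cells and 9.13 ± 0.938 in MEFs.

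**Figure D4:**
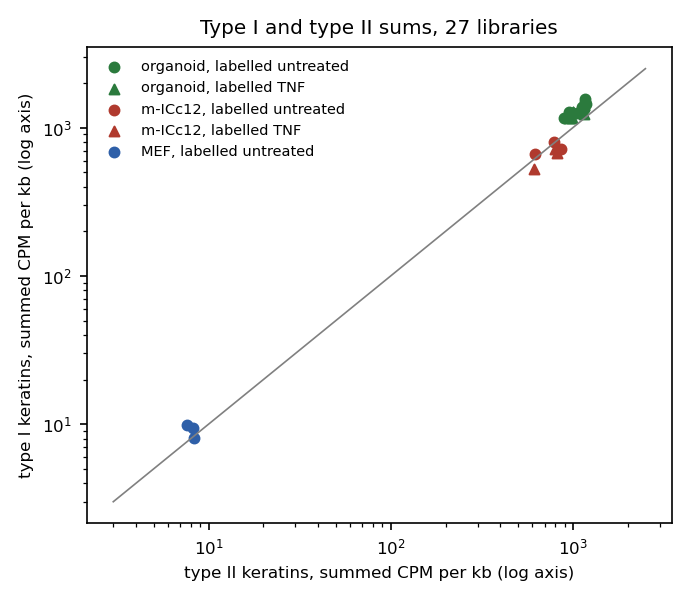
Summed type I keratins against summed type II keratins, in CPM per kilobase on log axes, for 27 libraries coloured by cell type, with circles for libraries labelled untreated and triangles for those labelled TNF. The line marks equal sums. Organoids lie above the line, m-ICc12 cells near or below it, and MEFs near it at about 10 CPM per kilobase or less.

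The organoid libraries labelled untreated, 1 per culture, differed little in Krt19 and Krt8 and more in the other keratins. The coefficient of variation over the 9 libraries labelled untreated was 7.55% for Krt19, 9.60% for Krt8, 21.6% for Krt18, 23.2% for Krt7, 41.0% for Krt20, 62.7% for Krt23, 79.5% for Krt15 and 111.5% for Krt6a. This spread includes that between libraries of a culture. Within cultures the log2 difference, labelled untreated minus labelled TNF, ranged from −0.14 to 0.55 for Krt20. It ranged from −3.376 to 3.015 for Krt15 and from −0.73 to 4.24 for Krt6a, so these 2 values are not traits of a culture alone. Among the cultures Z913 held the highest Krt20 (324.5 CPM) and the highest Krt23 (17.95 CPM), and Z919 the lowest Krt20 (89.6 CPM). Over the 9 cultures Krt20 rose with Alpi, the alkaline phosphatase of villus enterocytes (r = 0.79, permutation p = 0.014, adjusted p = 0.034 over 5 relations, Spearman rho = 0.77 with p = 0.021 and adjusted p = 0.052), and r was 0.84 without the 2 cultures farthest from the median of Krt20. Krt20 fell as Lgr5, a marker of crypt stem cells, rose (r = −0.80, permutation p = 0.011, adjusted p = 0.034, rho = −0.73 with p = 0.031 and adjusted p = 0.052), and r was −0.57 without the 2 farthest cultures. Krt8 and Krt19 rose together (r = 0.72, permutation p = 0.030, adjusted p = 0.0499, rho = 0.80 with p = 0.014 and adjusted p = 0.052), with r = 0.45 without the 2 farthest, and r = 0.83 without the 2 farthest in the libraries labelled TNF. With 8 cultures left, r stayed between 0.742 and 0.830 for Krt20 with Alpi, between −0.872 and −0.687 for Krt20 with Lgr5 and between 0.581 and 0.913 for Krt8 with Krt19. The relations of Krt20 with Alpi and of Krt8 with Krt19 missed the threshold when any culture other than Z917 was left out (adjusted p from 0.051 to 0.10 and from 0.0597 to 0.22), and that of Krt20 with Lgr5 missed it in 6 of 9 cases (up to 0.10). The relations of Krt8 with Krt18 (r = 0.49, permutation p = 0.18, adjusted p = 0.22, rho = 0.48) and of Krt18 with Krt19 (r = 0.11, permutation p = 0.78, adjusted p = 0.78, rho = 0.12) did not pass. The tests were exact and two-sided on log2 CPM, and 3 cultures per facility are too few to recompute them within a facility. In the libraries labelled TNF of the same cultures r was 0.81 for Krt20 with Alpi, −0.80 for Krt20 with Lgr5 and 0.72 for Krt8 with Krt19.

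The comparison of donor facilities addresses exposure to microbiota before culture. The 3 GF donors were littermates of 1 facility, so that microbiota, facility and litter cannot be told apart. Between the 3 GF and the 6 SPF cultures, in libraries labelled untreated, 12 keratins were tested and none had an adjusted p under 0.05 by edgeR or DESeq2, and 1 had an unadjusted p under 0.05, where 0.0325% of 12315 genes were called and 3.99% had such an unadjusted p. Krt8 stood at 1781, 1852 and 2126 CPM in GF cultures and 1681 to 2233 CPM in SPF cultures, with a difference of −0.09 ± 0.12 (log2, SE, interval −0.33 to 0.14). Krt19 stood at 1252, 1283 and 1339 CPM in GF cultures and 1215 to 1526 CPM in SPF cultures (−0.11 ± 0.11, interval −0.32 to 0.11). The ranges overlapped for both. For Krt20, the most variable of the abundant keratins, the interval was wider at −0.82 to 0.35. The unadjusted p under 0.05 belonged to Krt12 (edgeR, adjusted p = 1), which had 0 counts in the 3 GF cultures and in 2 of the 6 SPF cultures, and up to 1.41 CPM in the other 4.

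Between the labels of the organoid libraries, 11 keratins were tested and none passed by edgeR or DESeq2, and 1 had an unadjusted p under 0.05, where 1.39% of 12104 genes were called and 8.86% had such an unadjusted p. That gene was Krt7. It was higher in the library labelled untreated in 9 of 9 cultures, by 0.06 to 0.55 on the log2 scale, and its ranges were 127.6 to 246.8 CPM (median 192) and 113 to 216.7 CPM (median 144) under the label TNF. The ranges of the labels overlapped. The difference was 0.35 ± 0.14 (log2, SE, adjusted p = 0.39), and with culture as a replicate block it was 0.35 ± 0.06 (adjusted p = 0.0002), a fit that called 3.28% of genes. Krt7 was the only keratin called in the blocked fit, and its call held when each culture was left out of that fit (adjusted p at most 0.0015). Krt20 was higher in 8 of 9 cultures (0.20 ± 0.22, adjusted p = 0.91, and 0.11 with the block). It was called in the blocked fit without Z917 (adjusted p = 0.046), the culture in which it was lower. Krt8 and Krt19 showed small intervals, at −0.11 to 0.15 and −0.06 to 0.18.

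In m-ICc12 cells 13 keratins were tested between the labels and none passed by edgeR or DESeq2 (every adjusted p = 0.9956 in edgeR), with 1 at an unadjusted p under 0.05, where 0.11% of 11861 genes were called and 4.69% had such an unadjusted p. That gene was Krt80, at 29.9 and 14.1 CPM in culture M1, 16.7 and 10.97 CPM in M2 and 35.7 and 23.0 CPM in M3 (labelled untreated first). It was higher under the label untreated in 3 of 3 cultures, which are paired by replicate number only, by 0.76 ± 0.34 (log2, SE). Krt19 was lower under the label untreated in 3 of 3 cultures, at 2.67 and 9.06 CPM in M1, 2.52 and 2.80 CPM in M2 and 0.601 and 2.40 CPM in M3. Krt10 was lower too in 3 of 3 cultures, at 2.49 and 3.66 CPM in M1, 0.460 and 2.05 CPM in M2 and 0.769 and 3.12 CPM in M3, and Krt20 was higher in 3 of 3, by 0.01 to 0.43 on the log2 scale. The share of all genes on the same side in 3 of 3 cultures is not given here. Agreement of so few cultures is therefore no result about these keratins. The libraries of M1 and M3 labelled TNF are those with the high Lars2 share, and the part of that in the Krt19 and Krt10 values was not tested.

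The test of whether the difference between the labels itself differed between organoids and m-ICc12 cells called none of 18 keratins, with 1 at an unadjusted p under 0.05 and none by DESeq2, where 0.159% of 13183 genes were called and 6.5% had such an unadjusted p. That gene was Krt19, at 1.09 ± 0.39 (log2, SE, adjusted p = 0.55). With culture as a replicate block it was 1.18 ± 0.25 (adjusted p = 0.027), in a fit that called 0.781% of genes, although the paired m-ICc12 libraries deviated together only weakly (mean r = 0.0311). That call was lost without m-ICc12 culture M1 (0.82, adjusted p = 0.19) and without M3 (0.91, adjusted p = 0.10). For Krt7 the interaction was 0.03 ± 0.31, with an interval of −0.57 to 0.63.

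**Figure D5:**
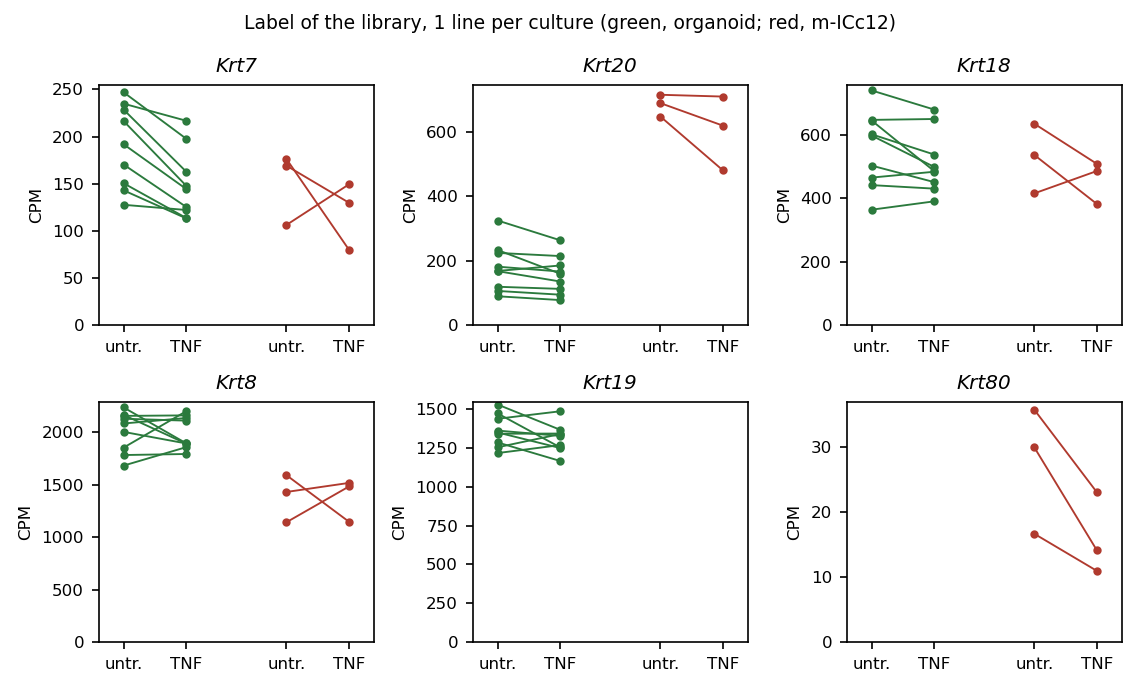
CPM of 6 keratins in the library labelled untreated (untr.) and the library labelled TNF of each culture, joined by a line, for organoids (green, 9 cultures) and m-ICc12 cells (red, 3 cultures). Krt19 is not drawn for m-ICc12 cells nor Krt80 for organoids, where they are low. The 9 organoid lines of Krt7 all slope down towards the label TNF, and those of Krt8 and Krt19 go both ways.

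The other genes of the filament system were read from lists. Of 16 further intermediate filament genes 11 were tested between organoids and m-ICc12 cells, with 5 higher in organoids and 5 lower. Of all genes tested in that comparison, 31.6% were higher in organoids and 29.3% lower. Vim, the filament gene of mesenchymal cells, averaged 9.46 ± 3.88 CPM in organoids, 2516 ± 600 CPM in m-ICc12 cells and 2474 ± 120 CPM in MEFs, and Nes averaged 2.77, 252 and 291 CPM. Vim and Nes were lower in organoids than in either other cell type, and neither passed the test between m-ICc12 cells and MEFs. The Vim range of m-ICc12 cells (1847 to 3007 CPM) spanned that of MEFs (2355 to 2594 CPM), in the same libraries whose Krt18 lay within the organoid range. Between m-ICc12 cells and MEFs 4 of 9 tested genes were lower and none higher, among them Lmna (−1.38) and Lmnb1 (−1.12), genes of the nuclear lamina. Over all genes tested there, 31.2% were lower and 28.1% higher.

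Of 21 matched genes of desmosomes, hemidesmosomes and plakins, to which keratins are anchored, 15 were tested between organoids and m-ICc12 cells. In organoids 10 were higher and 4 lower, where 31.6% of all genes tested were higher and 29.3% lower. The median was 0.94 on the log2 scale against 0.03 for all genes. Dsp, the plakin that ties keratins to desmosomes, averaged 520 ± 84.4 CPM in organoids, 404 ± 54.4 CPM in m-ICc12 cells and 2.38 ± 0.817 CPM in MEFs. Dsg2, the desmosomal cadherin of simple epithelia, averaged 268, 24.4 and 0.422 CPM, a difference of 3.48 between organoids and m-ICc12 cells. Plec, which links filaments to other parts of the cytoskeleton, went the other way, at 170, 397 and 626 CPM. Against MEFs 12 of 15 were higher and 2 lower in organoids, and 8 of 14 higher and 4 lower in m-ICc12 cells. Over all genes tested, 34.6% were higher and 32.6% lower in organoids, and 28.1% higher and 31.2% lower in m-ICc12 cells.

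Of 13 transcription factors known from epithelia 11 were tested between organoids and m-ICc12 cells, 9 higher in organoids and 1 lower. Of all genes tested there, 31.6% were higher and 29.3% lower. Hnf4a averaged 1072 ± 56.2 CPM in organoids, 132 ± 49.3 CPM in m-ICc12 cells and 1.76 ± 0.343 CPM in MEFs, Cdx1 456, 0.986 and 0.530 CPM, and Grhl2 70.7, 0.215 and 0.0869 CPM. Klf5 averaged 99.8, 22.9 and 15.9 CPM. In m-ICc12 cells against MEFs 3 of 7 were higher and 1 lower, where 28.1% of all genes tested were higher and 31.2% lower. Of 11 matched genes of the cornified envelope, which marks the surface of stratified epithelia, 5 were tested between organoids and m-ICc12 cells. In organoids 1 was higher (Evpl, by 4.68 on the log2 scale) and 4 lower, beside the same shares of 31.6% and 29.3% over all genes. Evpl and Ppl are also counted in the list of desmosomes and plakins. Sprr1a averaged 2.19 ± 1.05 CPM in organoids and 46.0 ± 8.68 CPM in m-ICc12 cells, and Ppl, a plakin of the envelope, 32.0 ± 7.97 and 256 ± 7.602 CPM. No gene of these 4 lists was called between the labels of organoids or m-ICc12 cells, or between GF and SPF cultures. In these comparisons 1.39%, 0.11% and 0.0325% of all genes tested were called.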

How the data were processed

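RNA was sequenced from 18 organoid, 6 m-ICc12 and 3 MEF libraries after poly-A selection, with a TruSeq kit that the labels call stranded and the study's methods do not. The authors deposited raw counts per Ensembl gene, not normalised. Per the labels the reads were demultiplexed with bcl2fastq 2.19, trimmed with Trimmomatic, aligned with STAR 2.5.4b to GRCm38 and counted with featureCounts. The use of strand and of reads with several matches in counting is not given in the sources used here, so genes that overlap or share sequence are uncertain. Of 22524 gene identifiers 22214 matched GENCODE vM21 and 310 did not.

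Members were the protein-coding genes named Krt with a number, those with a mean of at least 1 CPM in a cell type were described, and those called in a comparison were named. The members and gene lists were chosen with earlier results of these data known. From each other list up to 5 genes with the highest mean CPM were named, beside markers absent from a cell type. Groups and cultures came from the sample labels. CPM was scaled by TMM over the 27 libraries. Genes with at least 10 counts in 50% of the libraries of 1 group were tested with edgeR 4.0.16 (R 4.3.3, quasi-likelihood F-test, Benjamini-Hochberg adjustment over all genes tested, threshold 0.05). Intervals of fitted differences include the spread between libraries, whereas exact intervals of count ratios and detection floors of 3 counts cover counting error only. Correlations across cultures used exact two-sided permutation tests (scipy 1.17.1) on log2 CPM with a prior count of 2. The scripts were tested on simulated data.

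Alternatives were DESeq2 1.42.0, a filter of 1 count, all 27 libraries in 1 fit, the library of each culture labelled TNF, culture as a replicate block, and leaving out each library. The pairing of organoid libraries comes from the shared donor mouse, and paired libraries deviated together (mean r = 0.171, lowest 0.0821, highest 0.311, against −0.0200 for other cultures).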

Additional observations from a re-analysis of the deposited data

Results flagged for a closer look

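Of 24 groups of 9 organoid libraries (1 keratin under 1 label each), 4 held a library far from the others, by a gap test that flags about 1 in 20 groups of normally distributed values by chance. That rate does not apply to counts near 0, such as those of Krt5, where 1 library with counts among libraries at 0 is always set apart. Krt6a stood at 9.488 CPM in culture Z917 labelled TNF, where the next highest library held 1.539 CPM, and the same culture labelled untreated held the highest Krt6a of that label. Krt5 stood at 0.7862 CPM in culture Z917 labelled untreated (next highest 0.1961 CPM) and at 0.1925 CPM in culture Z918 labelled TNF, where all others had 0 counts. Krt12 stood at 0.6336 CPM in culture Z909 labelled TNF (next highest 0.2868 CPM). The cause of these values was not tested.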

How the results depend on the processing

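No keratin called in a comparison or in its alternative changed sign between them. Values that were called in neither changed sign in 99 cases, and so did the correlation of Krt18 with Krt19. The number of keratins called between organoids and m-ICc12 cells was 10 to 13 when single libraries were left out, between organoids and MEFs 10 to 11, and between m-ICc12 cells and MEFs 11 to 12. Between organoids and m-ICc12 cells it was 12 in the main fit, 11 with DESeq2 and 13 with the libraries labelled TNF. It was 15 with the filter of 1 count and 15 with all 27 libraries in 1 fit. Among fitted values of single keratins that were called, 463 kept their side of the threshold and 16 lost it, and those 16 belonged to Krt12, Krt19, Krt76 and Krt4. With culture as a replicate block the number of keratins called between the labels of organoids went from 0 to 1 (Krt7) and that of the interaction from 0 to 1 (Krt19). In blocked fits without a single culture, an alternative added after the data were seen, these counts ranged from 1 to 2 and from 0 to 1. The block called no keratin between the labels of m-ICc12 cells, whose same-numbered libraries all correlated below 0.1 (−0.00664 to 0.0925). The correlation of Krt8 with Krt19 was 0.725 on CPM (adjusted p = 0.059) and 0.581 to 0.913 without single cultures, that of Krt20 with Alpi 0.701 (adjusted p = 0.059) and 0.742 to 0.830, that of Krt20 with Lgr5 −0.872 to −0.687, and that of Krt18 with Krt19 −0.0418 to 0.251.

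Depth limited the low keratins: 3 counts stood for up to 0.494 CPM in the shallowest library, and differences of the keratins under about 1 CPM rest on a few libraries. Sequences shared with pseudogenes and paralogues touch Krt8, Krt6a and Krt16, and which library of a culture received TNF was not settled, so that label differences carry no direction of treatment.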
